A study of Homo sapiens with 12 samples.

Results

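The 7 genes described here encode the RUNX transcription factors (RUNX1, RUNX2 and RUNX3), their shared partner CBFB, and the ETO family of corepressors (RUNX1T1, CBFA2T2 and CBFA2T3). They were taken by gene symbol, for their place in this pathway, from the 20003 genes of an mRNA-seq data set of AML cell lines. All 7 are listed for all 12 samples, with RUNX1T1 at 0 FPKM in some NB4 samples. The cell lines were NB4, established from acute promyelocytic leukemia and carrying PML-RARα, and Kasumi-1, established from AML and carrying AML1-ETO. Each cell line was incubated either with DMSO (control) or with 1 μM OGP46, a compound synthesized from oridonin, with 3 samples per group. The sample labels and the methods of the study give 48 h of incubation, while a figure legend of the study gives a longer time. Each group is thus a single established cell line in culture, and nothing in the labels says whether the 3 samples of a group came from separate cultures, so p-values measure only the spread between these samples. Expression is given as FPKM (fragments mapped to a gene, scaled by its exon length and by the size of the library), which is a level per transcript length and can be compared between genes. The sequencing depth is unknown, because FPKM carry no read counts.

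The RUNX proteins bind DNA through their Runt domain, which recognises the core sequence ACCACA, and dimerisation with CBFB, which does not bind DNA itself, strengthens this binding. RUNX1 is required for the formation of definitive blood cells, RUNX2 for bone, and RUNX3 is best known from lymphocytes and sensory neurons. The ETO proteins do not bind DNA on their own and bring NCOR and histone deacetylase complexes to transcription factors. In AML1-ETO, the product of a translocation, the DNA-binding part of RUNX1 (AML1) is joined to almost the whole of RUNX1T1 (ETO). Reads of the fusion transcript therefore count towards RUNX1 and towards RUNX1T1, and the FPKM of these genes do not separate fused from normal transcripts.

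RefSeq promoter windows of 300 bases (250 before and 50 from the start site on, GRCh38.p14) were available for 5 of the 7 genes, 7 windows in all. The upstream-most windows of RUNX3 and RUNX2 are shown because each holds the RUNX core sequence as a pair, with the core hexamers in capitals and each stretch written along its gene's strand. The RUNX3 stretch, at chr1:24965120-24965149, begins at position -139, counted with the RefSeq start site as 0. The RUNX2 stretch, at chr6:45328338-45328367, begins at position 8, within the transcript.
RUNX3: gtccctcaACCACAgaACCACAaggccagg
RUNX2: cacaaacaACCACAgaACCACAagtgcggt
The hexamer ACCACA, searched on both strands, was present in 4591 of 35116 human promoter windows (13.1%). The run CAACCACAGAACCACAAG is the longest with a pair of hexamers that these windows share, chosen after they had been seen, so its presence in both is no finding. Searched on both strands, it was found in 2 of the 35116 windows (0.0057%), those of RUNX3 and RUNX2. The hexamer occurred 2 times in the RUNX3 window, 4 times in the RUNX2 window and 0 times in the other 5 windows of these genes, including the only one listed for RUNX1. A match of letters is no evidence of binding in these cells.

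In the GENCODE 29 annotation of the human genome (GRCh38), RUNX1 lies on the minus strand at chr21:34787801-36004667, RUNX2 on the plus strand at chr6:45328157-45664349 and RUNX3 on the minus strand at chr1:24899511-24965121. CBFB lies on the plus strand at chr16:67029116-67101058, CBFA2T2 on the plus strand at chr20:33490075-33650036 and CBFA2T3 on the minus strand at chr16:88874858-88977204, while RUNX1T1 is on the minus strand of chromosome 8. The FPKM cover the exons of each gene, and the annotation used by the study is not given in the sources used here. Exons of 2 of the 7 genes overlap an antisense gene, RUNX1T1 over 66 bases and CBFA2T3 over 501 bases, and neither antisense gene is listed in the data.

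Genes typical of the other cell line were listed at low values in some samples, which bears on the lowest values below. Where these low values come from was not tested. For 50 genes of Kasumi-1 cells that NB4 cells hardly express, the median FPKM in NB4 control samples 1, 2 and 3 was 0.102%, 0.398% and 1.33% of the Kasumi-1 control mean. In the OGP46 samples of NB4, on which these genes were chosen, it was at most 0.142%. For 50 genes of NB4 cells, the median in Kasumi-1 control sample 2 was 1.79% of the NB4 level, against 0.420% and 0.482% in the other controls. Both cell lines expressed granulocytic precursor genes, with summed FPKM of MPO, ELANE, AZU1, PRTN3, CTSG and CD33 between 1596 and 3954 in NB4 and between 7770 and 11926 in Kasumi-1. In NB4, most of this sum was MPO, while ELANE was at 0.321–14.5 FPKM. Megakaryocytic markers summed to at most 1.20 FPKM in every sample, with PF4 listed at 0. Lymphoid markers summed to 21.9–48.6 FPKM in NB4 and 8.08–11.4 in Kasumi-1, mostly from CD3D and CD79B in NB4 and from CD79B in Kasumi-1, with MS4A1 listed at 0.

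RUNX1 was the most abundant RUNX gene in both cell lines and was more abundant in Kasumi-1. Its FPKM were 14.0, 15.5 and 13.8 in the NB4 controls and 14.0, 17.4 and 16.4 in NB4 with OGP46. In Kasumi-1, they were 32.8, 33.7 and 37.2 in the controls and 33.8, 33.7 and 41.2 with OGP46. No NB4 sample reached the lowest Kasumi-1 sample, while control and OGP46 samples overlapped in each line. RUNX2, the osteogenic factor, was the least abundant RUNX gene, at 3.77, 4.12 and 4.35 FPKM in the NB4 controls and 3.41, 4.48 and 5.13 with OGP46. It was at 4.98, 4.66 and 4.69 FPKM in the Kasumi-1 controls and 4.31, 4.85 and 5.02 with OGP46, so that its levels were close in all groups.

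RUNX3 had the reverse order of RUNX1. Its FPKM were 11.3, 11.2 and 11.5 in the NB4 controls and 12.5, 13.6 and 12.5 with OGP46, without overlap. In Kasumi-1, they were 7.49, 8.45 and 8.79 in the controls and 6.82, 7.28 and 9.63 with OGP46, and every Kasumi-1 sample lay below every NB4 sample. CBFB, the common partner, was the most abundant of the 7 genes in NB4, at 60.4, 59.6 and 53.1 FPKM in the controls and 70.7, 75.4 and 72.6 with OGP46. In Kasumi-1, it was at 32.3, 32.7 and 33.2 FPKM in the controls and 33.0, 32.6 and 36.4 with OGP46, below all NB4 samples.

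Among the ETO family genes, RUNX1T1 was a Kasumi-1 gene, CBFA2T3 was mostly an NB4 gene, and CBFA2T2 had similar levels in both lines. RUNX1T1 was at 8.38, 8.45 and 8.73 FPKM in the Kasumi-1 controls and 8.17, 8.22 and 9.66 with OGP46. In NB4, it was at 0, 0.0315 and 0.0762 FPKM in the controls and 0.00277, 0 and 0.00611 with OGP46, which makes it the one of these 7 genes that separates the line carrying AML1-ETO from the other most widely. CBFA2T3, a corepressor of blood progenitors, was at 11.3, 11.3 and 13.1 FPKM in the NB4 controls and 10.7, 11.0 and 14.5 with OGP46. In Kasumi-1, it was at 2.90, 2.87 and 3.04 FPKM in the controls and 2.74, 2.93 and 3.03 with OGP46. Treated and control samples of CBFA2T3 overlapped in both lines. CBFA2T2, the family member that is expressed in most tissues, was at 2.75, 2.32 and 2.55 FPKM in the NB4 controls and 3.01, 3.06 and 3.33 with OGP46, without overlap. Its Kasumi-1 samples, at 2.77, 3.57 and 3.09 FPKM in the controls and 2.93, 3.13 and 3.41 with OGP46, overlapped.

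**Figure D1:**
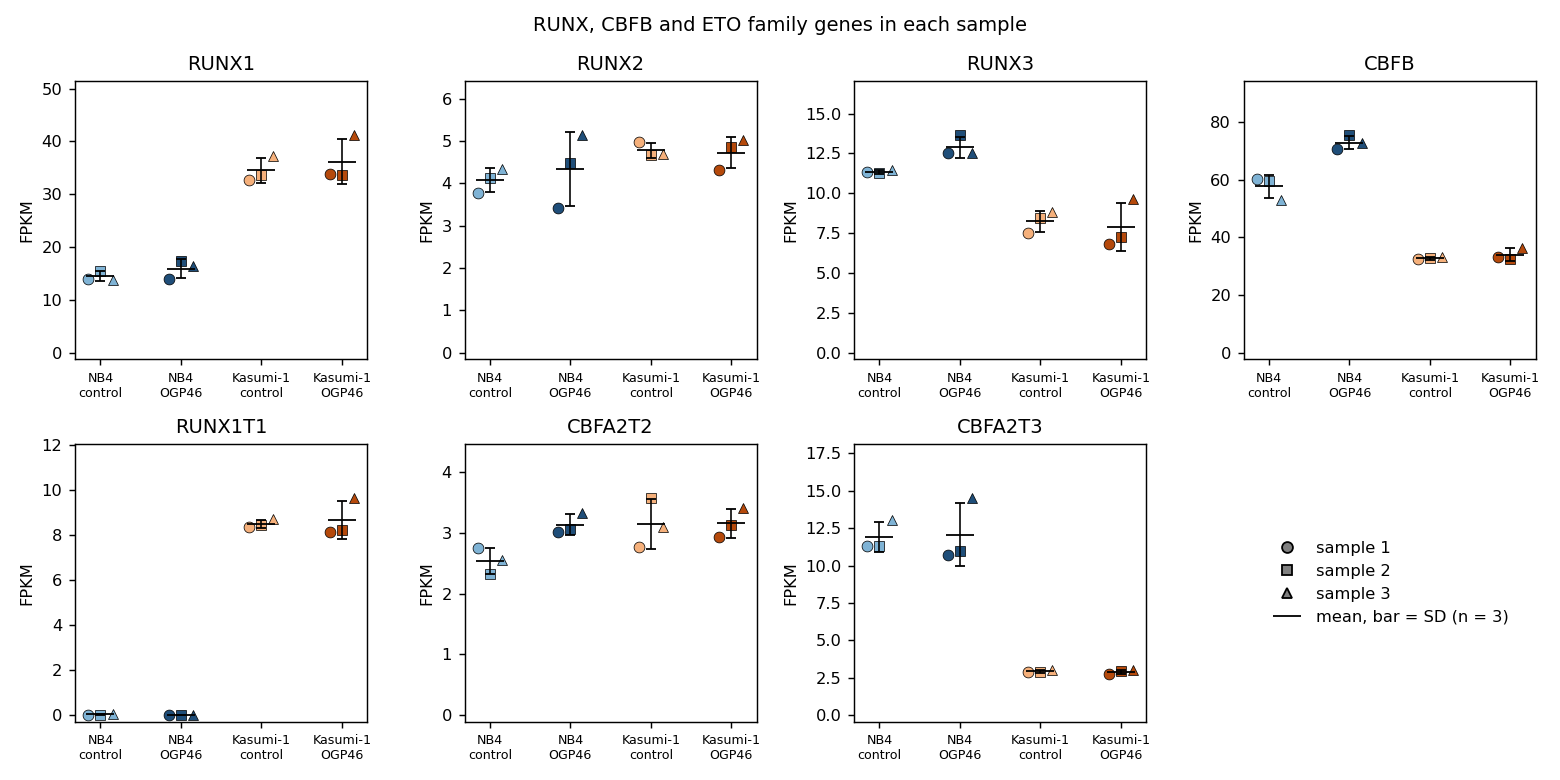
FPKM of the 7 genes in each of the 12 samples (vertical axis, linear and from 0), by cell line and treatment, with the symbol giving the sample number and the horizontal line and bar giving the mean and SD of 3 samples. RUNX1 and RUNX1T1 are higher in every Kasumi-1 sample, whereas RUNX3, CBFB and CBFA2T3 are higher in every NB4 sample.

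Within NB4 controls, the order of the mean levels was CBFB at 57.7 ± 3.99 FPKM (SD, n = 3), RUNX1 at 14.5 ± 0.920, CBFA2T3 at 11.9 ± 1.01, RUNX3 at 11.4 ± 0.125, RUNX2 at 4.08 ± 0.289, CBFA2T2 at 2.54 ± 0.214 and RUNX1T1 at 0.0359 ± 0.0383. CBFA2T3 and RUNX3 overlapped and exchanged places with OGP46, while the other neighbours were separate in the controls. With OGP46, the samples of CBFA2T3 also overlapped those of RUNX1. Within Kasumi-1 controls, RUNX1 at 34.5 ± 2.32 FPKM and CBFB at 32.8 ± 0.470 led and overlapped. They were followed by RUNX1T1 at 8.52 ± 0.183 and RUNX3 at 8.24 ± 0.672, which also overlapped, then by RUNX2 at 4.77 ± 0.176. CBFA2T2 at 3.14 ± 0.404 FPKM and CBFA2T3 at 2.94 ± 0.0929 overlapped at the end of the order, and the order was the same with OGP46.

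The composition of each family differed between the lines and moved little with OGP46. RUNX1 made up 48.3% ± 1.81 of the summed RUNX FPKM in NB4 controls and 48.0% ± 1.11 with OGP46 (SD, n = 3), against 72.6% ± 0.711 and 74.2% ± 0.923 in Kasumi-1, where the samples did not overlap (72.0–73.4% and 73.5–75.2%). RUNX3 made up 38.0% and 39.0% in NB4 and 17.3% and 16.1% in Kasumi-1. The sum of the RUNX genes was 29.9 ± 0.900 FPKM in NB4 controls and 47.5 ± 2.79 in Kasumi-1 controls. CBFB, by contrast, stood at 1.93 ± 0.142 times the RUNX sum in NB4 controls and at 0.690 ± 0.0300 times in Kasumi-1 controls. With OGP46, these ratios of FPKM were 2.21 ± 0.136 and 0.700 ± 0.0422. The NB4 values of this ratio, 2.07, 1.93 and 1.79 in the controls and 2.36, 2.12 and 2.13 with OGP46, did not overlap. Among single genes, such a separation of OGP46 and control samples was frequent. In NB4, 32.7% of all genes tested were higher with OGP46 without overlap, and in Kasumi-1, 22.6% did not overlap in either direction.

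For the ETO family, the summed level was alike in the lines although its members were not. The sum was 14.5 ± 1.08 FPKM in NB4 controls and 14.6 ± 0.480 in Kasumi-1 controls, with overlapping samples. CBFA2T3 gave 82.2% ± 1.47 of it in NB4 controls and 20.1% ± 0.738 in Kasumi-1 controls, where RUNX1T1 gave 58.4% ± 1.50. CBFA2T2 gave 17.6% ± 1.70 and 21.5% ± 2.22. In Kasumi-1, the level of RUNX1T1 was 0.247 ± 0.0110 times that of RUNX1 in the controls and 0.240 ± 0.00496 times with OGP46, and the samples overlapped. As the fusion holds only a part of RUNX1 and FPKM do not separate fused from normal transcripts, this ratio is not the fused share of RUNX1. These shares and ratios are descriptions and were not tested.

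**Figure D2:**
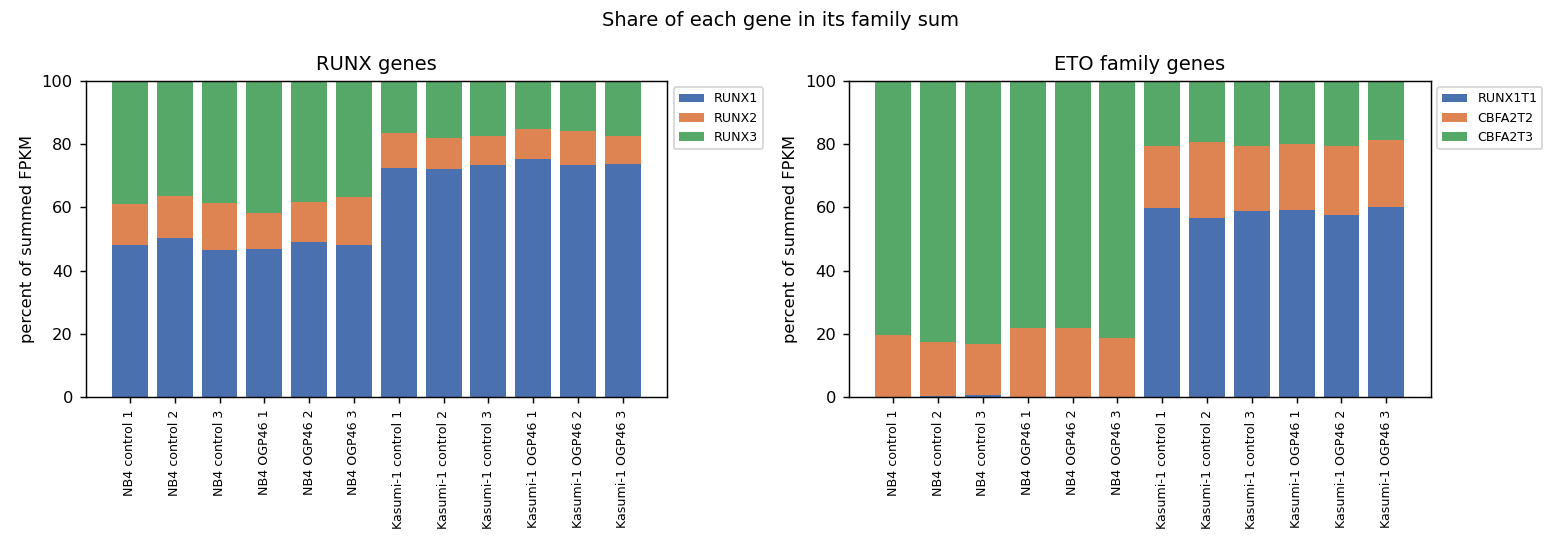
Share of each gene in the summed FPKM of its family, in percent, with 1 bar per sample, for the RUNX genes (left) and the ETO family genes (right). RUNX1 holds 46.6–50.2% of the RUNX sum in the NB4 controls and 72.0–73.4% in the Kasumi-1 controls, and the leading ETO family gene is CBFA2T3 in NB4 and RUNX1T1 in Kasumi-1.

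To ask which of the genes differed between the lines, Kasumi-1 was compared with NB4 by limma on log2(FPKM + 0.1), and a gene was called at a Benjamini-Hochberg adjusted p below 0.05 over all genes tested and a log2 difference of at least 0.58 in size. In the controls, 4 of the 7 genes were called, beside 52.4% of the 12302 genes tested, with 2 of the 7 higher in Kasumi-1 (29.7% of all genes) and 2 lower (22.7%). RUNX1 was higher in Kasumi-1, with a log2 difference of 1.25 (standard error 0.080, adjusted p = 1.1e-06 from limma), or 2.39-fold in mean FPKM. RUNX1T1, the other partner of the fusion, was also higher, with a log2 difference of 6.02, a value that depends on the pseudocount and was 3.20 with pseudocount 1 and 8.01 with pseudocount 0.01. RUNX1T1 reached the mean of 0.1 FPKM needed for testing only through Kasumi-1. Its call, counted among the 4 and among the 2 higher genes, therefore describes its level there and is not read as a test result. CBFB was lower in Kasumi-1, with a log2 difference of -0.81 (standard error 0.071, adjusted p = 8.3e-06), the NB4 mean being 1.76-fold higher. CBFA2T3 was lower as well, with a log2 difference of -1.98 (standard error 0.093, adjusted p = 1.9e-07), the NB4 mean being 4.05-fold higher. RUNX3 had a log2 difference of -0.46 (95% interval -0.65 to -0.27, adjusted p = 9.2e-04), under the minimum of 0.58, and it was called at -0.66 after TPM scaling, which divides each sample by its FPKM sum. For RUNX2 and CBFA2T2, the differences of 0.22 (0.0058 to 0.44, adjusted p = 0.0599) and 0.29 (0.0021 to 0.58, adjusted p = 0.0639) did not pass. The samples of the lines did not overlap for any of the 7 genes, as for 77.7% of all genes. For RUNX1T1, this again only describes its level in Kasumi-1. The median log2 difference of all genes was 0.10 as deposited and -0.10 after TPM scaling, and the 3659 higher and 2790 lower genes became 3005 higher and 3586 lower. Whether a difference in bulk RNA comes from the cells that express a gene or from the RNA per cell cannot be told apart.

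In the OGP46 samples, which the comparison of controls does not use, 5 of the 7 genes were called, beside 52.8% of the 12307 genes tested, with 2 of the 7 higher in Kasumi-1 (26% of all genes) and 3 lower (26.8%). The log2 differences were 1.18 for RUNX1 (standard error 0.11, adjusted p = 2.1e-05 from limma) and -0.71 for RUNX3 (standard error 0.13, adjusted p = 0.0011). RUNX1T1, with a log2 difference of 6.41, was again tested only through its level in Kasumi-1, and its call is not read as a test result. The other log2 differences follow. They were -1.10 for CBFB (standard error 0.069, adjusted p = 2.0e-06) and -2.01 for CBFA2T3 (standard error 0.13, adjusted p = 2.0e-06). RUNX2 and CBFA2T2 overlapped between the lines here, with differences of 0.14 (95% interval -0.21 to 0.48, adjusted p = 0.437) and 0.0086 (-0.23 to 0.25, adjusted p = 0.944). The other 5 genes did not overlap, against 77.2% of all genes, and RUNX1T1 is among the 5 only through its level in Kasumi-1. Leaving out any single sample changed no call for these genes in either comparison of the lines. As each fusion gene is represented by 1 cell line, the fusion genes and all other differences between the lines cannot be told apart.

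**Figure D3:**
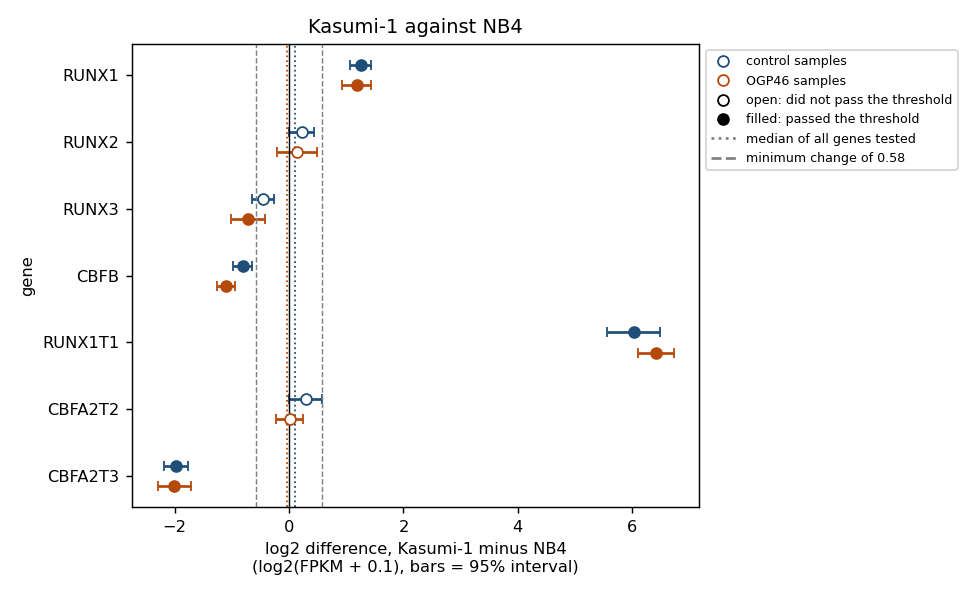
Log2 difference of Kasumi-1 minus NB4 for the 7 genes (horizontal axis, log2(FPKM + 0.1)), in the control samples and in the OGP46 samples, with 95% intervals, dotted lines at the median of all genes tested and dashed lines at the minimum difference of 0.58. RUNX1 and RUNX1T1 lie to the right and CBFB and CBFA2T3 to the left in both comparisons, and RUNX3 passes in the OGP46 samples.

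The low values of RUNX1T1 in the NB4 controls ranked as those of other genes of Kasumi-1 cells did. In NB4 control samples 1, 2 and 3, RUNX1T1 stood at 0%, 0.370% and 0.895% of its Kasumi-1 control mean, beside medians of 0.102%, 0.398% and 1.33% for the 50 Kasumi-1 genes. With OGP46, it stood at 0.0326%, 0% and 0.0717%, beside 0.0865%, 0.0892% and 0.142%, and there samples 1 and 2 were in the other order. The highest value of RUNX1T1 and of the 50 genes was thus in NB4 control sample 3. Without this sample, the log2 difference of RUNX1T1 between the control lines was 6.23, and without NB4 control sample 2 it was 6.02. RUNX1T1 was below the filter of 0.1 FPKM in NB4 and was not tested there for OGP46. Where its low NB4 values come from was not tested.

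**Figure D4:**
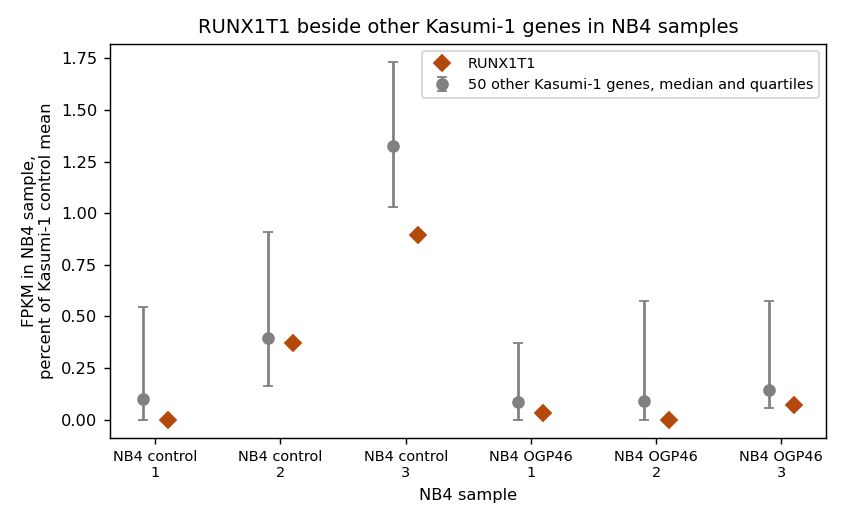
FPKM in each NB4 sample as a percentage of the Kasumi-1 control mean (linear vertical axis), for RUNX1T1 (diamonds) and for 50 other genes of Kasumi-1 cells (circles with bars, median and quartiles). NB4 control sample 3 has the highest value of both, 0.895% for RUNX1T1 and a median of 1.33% for the other genes.

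To ask whether OGP46 changed the expression of these genes, treated and control samples were compared within each line by the same test, without pairing of samples. In NB4, 0 of the 6 genes tested were called, beside 1.56% of the 11750 genes tested (183 genes), and 2 of the 6 had an unadjusted p below 0.05, beside 29.1% of all genes. CBFB had the highest difference, with a mean of 57.7 ± 3.99 FPKM in the controls and 72.9 ± 2.37 with OGP46 (SD, n = 3). Its log2 difference was 0.34 (95% interval 0.16 to 0.52, adjusted p = 0.0627 from limma), and it was higher in 3 of 3 same-numbered pairs. When the sample number was added as a block, so that same-numbered samples were set against each other, the adjusted p was 0.0132 for the same difference, still under the minimum of 0.58, and 0 of the 6 genes were called beside 6.21% of all genes. CBFA2T2 had a log2 difference of 0.29 (0.033 to 0.55, adjusted p = 0.139), with means of 2.54 ± 0.214 and 3.13 ± 0.169 FPKM. RUNX3 had one of 0.18 (-0.0023 to 0.36, adjusted p = 0.175). These 3 of the 6 genes were higher in all OGP46 samples than in all controls, against 32.7% of all genes tested. The summed FPKM of granulocytic precursor genes ranged from 2612 to 3954 in the NB4 controls and from 1596 to 2823 with OGP46, with 0 of these 6 genes called and 4 of 6 lower with the block. Most of this sum was MPO, at 2394 to 3323 FPKM in the controls and 1510 to 2503 with OGP46. CD33 went the other way, from 7.49, 9.02 and 7.72 FPKM to 9.39, 10.9 and 9.58 with OGP46. In Kasumi-1, the sum of these genes was also lower, ranging from 9621 to 11926 FPKM in the controls and from 7770 to 8983 with OGP46. There, 0 of the 6 genes were called, with or without the block, and CD33 was again higher, with means of 8.57 and 11.1 FPKM. The part of the precursor genes in the results was not tested.

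The other genes moved less in NB4. The log2 differences were 0.13 for RUNX1 (95% interval -0.10 to 0.37, adjusted p = 0.394 from limma), 0.070 for RUNX2 (-0.28 to 0.42, adjusted p = 0.772) and 0.011 for CBFA2T3 (-0.29 to 0.31, adjusted p = 0.957). The intervals of all 6 genes lay within ±0.58, a 1.49-fold change. The median of all genes was 0.18 as deposited, so that 2 of the 6 genes, CBFB and CBFA2T2, lay above it and RUNX3 at it. After TPM scaling, this median was 0.056 and CBFB stood at 0.21 (adjusted p = 0.211). CBFB and CBFA2T2 remained above 0 under all scalings tried, while RUNX1, RUNX2, RUNX3 and CBFA2T3 turned below 0 under at least 1 of them.

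In Kasumi-1, the partners of the fusion did not change detectably with OGP46. RUNX1T1, at 8.52 ± 0.183 FPKM in the controls and 8.68 ± 0.848 with OGP46 (SD, n = 3), had a log2 difference of 0.023 (95% interval -0.16 to 0.20, adjusted p = 0.918 from limma). RUNX1, at 34.5 ± 2.32 and 36.2 ± 4.30 FPKM, had one of 0.063 (-0.13 to 0.26, adjusted p = 0.758). OGP46 sample 3 was the highest OGP46 sample for all 7 genes, and the highest of the 6 Kasumi-1 samples for RUNX1, RUNX1T1, RUNX2, RUNX3 and CBFB. The differences were 0.052 for CBFB (-0.085 to 0.19, adjusted p = 0.712), -0.017 for RUNX2 (-0.21 to 0.17, adjusted p = 0.944) and -0.072 for RUNX3 (-0.35 to 0.20, adjusted p = 0.811). For the corepressors CBFA2T2 and CBFA2T3, they were 0.010 (-0.24 to 0.26, adjusted p = 0.975) and -0.019 (-0.22 to 0.18, adjusted p = 0.940). Of the 7 genes, 0 were called, beside 0.0338% of the 11835 genes tested (4 genes), and 0 had an unadjusted p below 0.05, beside 15.6% of all genes. With the sample number as a block, 0 of the 7 were called, beside 0.617%. All 7 intervals lay within ±0.58, and control and OGP46 samples overlapped for all 7 genes, whereas they did not overlap for 22.6% of all genes.

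**Figure D5:**
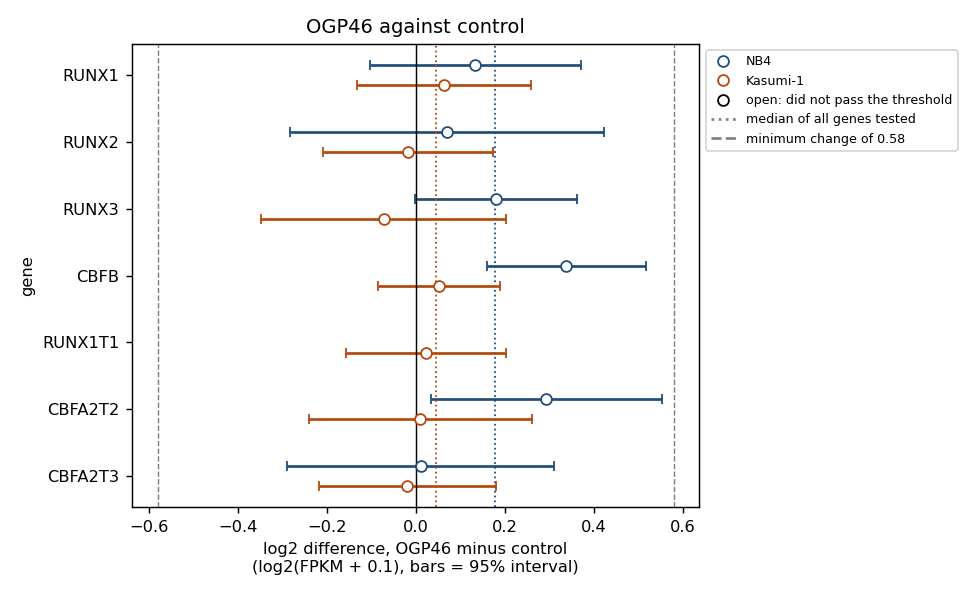
Log2 difference of OGP46 minus control (horizontal axis, log2(FPKM + 0.1)) in NB4 and Kasumi-1 with 95% intervals, dotted lines at the median of all genes tested in each line (0.18 and 0.046) and dashed lines at the minimum difference of 0.58. All intervals lie between the dashed lines, and only those of CBFB and CBFA2T2 in NB4 lie wholly above 0.

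Whether the effect of OGP46 differed between the lines was tested as the interaction of line and treatment over the 12 samples. With the adjusted p of limma held below 0.05, 0 of the 6 genes above the filter in both lines differed, beside 0% of the 12309 genes tested, and at an unadjusted p below 0.05, 1 of the 6 did, beside 11% of all genes. That gene was CBFB, whose log2 difference was lower in Kasumi-1 by -0.29 (95% interval -0.49 to -0.084, adjusted p = 0.296). CBFA2T2 differed by -0.28 (-0.63 to 0.061, adjusted p = 0.521) and RUNX3 by -0.25 (-0.60 to 0.092, adjusted p = 0.567). RUNX1T1 entered this fit only through its level in Kasumi-1, and its value, 0.067, 0.39 and 1.40 with pseudocounts of 1, 0.1 and 0.01, was set by the pseudocount and is not read as a difference. RUNX1, RUNX2 and CBFA2T3 differed by -0.072, -0.087 and -0.030 (adjusted p = 0.860, 0.870 and 0.953). With the sample number as a block, the adjusted p of CBFB was 0.139, and 0 of the 6 genes differed, beside 1.93% of all genes. For RUNX3 and CBFA2T2, the interval reached beyond ±0.58, so that a difference of that size between the lines is not bounded for them.

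The proteins that work with the RUNX and ETO factors were followed in lists of their genes. Of 12 corepressor genes tested in NB4 (NCOR, histone deacetylase, SIN3A, TBL1 and TLE genes), 0 passed with OGP46 in limma, beside 1.56% of all genes, and 6 had an unadjusted p below 0.05, beside 29.1% of all genes. The median log2 difference of these corepressor genes was 0.19, beside 0.18 for all genes. The largest differences, which did not pass, were those of the Groucho-type corepressors TLE1 (-0.68, adjusted p = 0.142) and TLE4 (0.57, adjusted p = 0.0552). Of 6 coactivator genes, 1 rose, HIPK2, a kinase that phosphorylates RUNX1 and its coactivators. HIPK2 went from 4.46, 3.79 and 4.72 FPKM to 6.36, 7.26 and 7.13 with OGP46 in NB4, a log2 difference of 0.67 (standard error 0.11, adjusted p = 0.0346 from limma), and did not pass after TPM scaling (0.54, adjusted p = 0.122). When a sample was left out, HIPK2 stood at 0.58 to 0.73 and passed in 1 of 6 cases, without OGP46 sample 2 (adjusted p = 0.0411 from limma, against 0.0639 to 0.134 in the others). The median of the coactivators was 0.27. Of 9 genes of E proteins and haematopoietic complexes, 0 passed in NB4 and 2 had an unadjusted p below 0.05, with a median of 0.12. The largest differences of this list were those of LMO2, an adaptor of the TAL1 complex (0.33, adjusted p = 0.0683), and TCF12, an E protein (0.30, adjusted p = 0.105).

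Of 18 genes known as targets of RUNX1 or AML1-ETO, 4 (CSF2, IL3, MYL9 and PF4) were listed at 0 in every sample, and 14 were tested in NB4, with a median of 0.12, beside 0.18 for all genes. Of the 14, 1 was called with OGP46, beside 1.56% of all genes, and 4 had an unadjusted p below 0.05, beside 29.1% of all genes. CDKN1A, the cell cycle inhibitor p21, rose. It was at 1.77, 1.69 and 1.15 FPKM in the NB4 controls and 6.07, 4.34 and 3.02 with OGP46, a log2 difference of 1.45 (standard error 0.26, adjusted p = 0.0364 from limma). After TPM scaling, CDKN1A was at 1.33 and did not pass (adjusted p = 0.122). It passed without OGP46 sample 2 (1.45, adjusted p = 0.0345 from limma) and in no other case of a sample left out (1.21 to 1.70, adjusted p = 0.0606 to 0.154). In Kasumi-1, CDKN1A had a difference of 0.16 (adjusted p = 0.695), and the difference between the lines did not pass (-1.29, adjusted p = 0.225, and 0.0096 with the sample number as a block). With the sample number as a block, 3 of the 14 targets were called in NB4, beside 6.21% of all genes. The macrophage growth factor receptor gene CSF1R (0.60, adjusted p = 0.0092 from limma) then rose and the neutrophil elastase gene ELANE (-2.17, adjusted p = 0.0023) fell as well. The NB4 control values of ELANE, 0.504, 3.30 and 14.5 FPKM, rank as the 50 Kasumi-1 genes do in these samples, but ELANE, at 1352–1717 FPKM in Kasumi-1 controls, is itself 1 of the 50. Whether the ELANE result has the same origin as the low values of these genes was not tested.

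In Kasumi-1, 0 genes of these lists passed with OGP46 in limma, beside 0.0338% of all genes. An unadjusted p below 0.05 was found for 1 of 12 corepressors, 3 of 6 coactivators, 1 of 8 genes of E proteins and haematopoietic complexes and 5 of 13 targets, beside 15.6% of all genes. The medians were 0.05, 0.17, 0.01 and -0.12, beside 0.046 for all genes. The largest differences were those of TLE1 (0.27) and TBL1X (0.24) among corepressors, HIPK2 (0.35) and the arginine methyltransferase gene PRMT1 (-0.22) among coactivators, and GATA2 (0.22) and LYL1 (-0.09) in the third list. Among the targets, they were those of NFE2 and LAT2, which encodes a signalling adaptor of myeloid and B cells. NFE2, an erythroid and megakaryocytic factor, was at 0.302, 0.535 and 0.324 FPKM in the controls and 0.144, 0.187 and 0.125 with OGP46, a log2 difference of -0.93 (adjusted p = 0.140, and 0.0487 with the sample number as a block). LAT2 had a difference of -0.71 (adjusted p = 0.454). NFE2 and LAT2 are abundant in NB4, at 16.9 ± 3.77 and 55.1 ± 5.0 FPKM in the controls, and their highest Kasumi-1 control values were in sample 2, which also had the highest signal of the 50 NB4 genes, a set that includes both. The part of this signal in their values was not tested.

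Between the control lines, the same lists differed widely, as did 52.4% of all genes. Of 12 corepressor genes, 3 were higher and 4 lower in Kasumi-1, and of 6 coactivators 1 was higher and 2 lower. Of 9 genes of E proteins and haematopoietic complexes, 7 were higher and 1 lower. After TPM scaling, these counts were 2 and 5 for corepressors, 1 and 3 for coactivators and 6 and 1 for E proteins and haematopoietic complexes. The genes named here were chosen after their values were seen. TAL1 (log2 difference 4.0), LYL1 (1.79), LMO2 (1.45), TCF3 (0.99), TCF12 (0.87), LDB1 (0.81) and FLI1 (0.76) were higher in Kasumi-1, and GATA1, at 0.397 ± 0.20 FPKM in NB4 controls and listed at 0 in all Kasumi-1 samples, was lower. TAL1, at 0.0567 FPKM in NB4 controls on average, and GATA1 reached the filter of 0.1 FPKM only through the line where they are higher. Their calls, counted above, describe these levels and are not read as test results, and the value of TAL1 depends on the pseudocount. LYL1 and LMO2 were at 42.0 ± 2.94 and 27.2 ± 0.971 FPKM in Kasumi-1 controls. Of 14 targets, 7 were higher and 5 lower in Kasumi-1 (5 and 5 after TPM scaling). Those that were higher included POU4F1 (3.33), known for its high level in AML with AML1-ETO, and GFI1 (1.77), and those that were lower included the myeloid factor CEBPA (-3.23), NFE2 (-5.13), LAT2 (-7.23) and the DNA repair gene OGG1 (-3.04). CEBPA was at 72.9, 81.1 and 81.8 FPKM in the NB4 controls and 6.66, 9.03 and 9.36 in the Kasumi-1 controls. CCL3, among the 14 targets, was listed at 0 in all Kasumi-1 samples. It was tested only through its level in NB4, and its result is not read as a test result.

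The genes whose pattern over the 12 samples was most like that of RUNX1 and RUNX1T1 were sought among 9943 genes whose mean reached 1 FPKM, by the root mean square difference of centred log2(FPKM + 0.1). For RUNX1, they were CELF2 (0.06), ANKRD10 (0.07) and ENGASE (0.08). CELF2, an RNA-binding protein gene, was at 11.3 FPKM in NB4 controls and 28.7 in Kasumi-1 controls on average. For RUNX1T1, they were ZNF711 (0.11), ICA1 (0.13) and TCEAL4 (0.13), with means of 9.14, 7.30 and 8.80 FPKM in Kasumi-1 controls. In NB4 controls, ZNF711, ICA1 and TCEAL4 were at 0.0355, 0.0275 and 0.0423 FPKM on average, beside 0.0359 for RUNX1T1, a closeness that follows from how they were chosen. As the lines differ at most genes, a likeness over these samples is mostly a likeness of the 2 lines.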

How the data were processed

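mRNA-seq was performed on NB4 and Kasumi-1 cells (3 control and 3 OGP46 samples each). Poly(A) mRNA libraries were made with a stranded kit. The authors deposited 1 FPKM value per gene symbol and sample. The submitters' processing notes name Trimmomatic, HISAT2, Cufflinks, HTSeq and the hg38 build, with no versions or settings, and whether counting used strand is not given in the sources used here. Of 20030 rows per file, 27 symbols turned into dates were left out. FPKM sums were 248207–310262 per sample, and 9339–9746 genes had at least 1 FPKM. Of the deposited values, 632 lay between 0 and 1e-04. How reads were assigned to genes is not given in the sources used here, and no count test was possible on FPKM. Depth is unknown, so precision rests on 3 samples per group, and an exact permutation test of 3 against 3 could not go below 0.10.

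From the deposited FPKM, log2(FPKM + 0.1) was computed and tested by limma 3.58.1 (R 4.3.3, empirical Bayes with trend) over genes whose mean reached 0.1 FPKM in the compared samples, at an adjusted p (Benjamini-Hochberg) below 0.05 and, except for the interaction, a log2 difference of at least 0.58. These log2 differences understate the change of low genes. The fits were tested on simulated data. The 7 genes and the gene lists were chosen with earlier results of these data known. Named were all 7 genes, up to 3 genes per list, direction and OGP46 comparison that passed (otherwise the 2 with the largest differences), the 3 genes nearest to RUNX1 and to RUNX1T1, and defining markers. Deviations from group means of same-numbered control and OGP46 samples correlated at r = 0.355, 0.622 and 0.197 in NB4 and 0.218, 0.157 and 0.395 in Kasumi-1 across genes. For differently numbered samples, r lay between -0.468 and 0.224 in NB4 and between -0.278 and 0.101 in Kasumi-1. NB4 control 1 with OGP46 3 (0.224) thus exceeded same-numbered pair 3 (0.197). Whether label numbers pair the samples within a line is therefore uncertain. The main fits used no pairing, and the replicate block was an alternative. Between lines, r of same-numbered samples lay between -0.05 and 0.04. Alternatives were TPM scaling, quantile normalization, median centring, the replicate block (alone, with TPM scaling or with median centring), pseudocounts of 1 and 0.01, the filter set to 1 FPKM or left out, and omission of each sample. Gene positions came from GENCODE 29, which holds 19261 of the 20003 symbols, and promoter sequences from RefSeq (GRCh38.p14). RUNX1T1 sequence is not shown. The levels of 1 marker list are not reported here.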

Additional observations from a re-analysis of the deposited data

How the results depend on the processing

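The 0, 0, 0, 4 and 5 called genes among the 7 (NB4 and Kasumi-1 with OGP46, interaction, lines in controls, lines with OGP46) were found under every alternative tried, except that RUNX3 was also called between the control lines with TPM scaling, without and with the replicate block (5 genes, RUNX3 at -0.66). The 4 and the 5 include RUNX1T1, which was tested only through its level in Kasumi-1. The count of all genes called was less stable with OGP46. In NB4, 183 genes became 117 with pseudocount 1, 4 without a filter, 0 with TPM scaling, median centring or quantile normalization, 730 with the replicate block, 449 with the block and TPM scaling, 387 with the block and median centring, and 0–396 when a sample was left out (396 without OGP46 sample 2, at most 2 without any other). In Kasumi-1, 4 genes became 2 with pseudocount 1, 0 without a filter, 24 at a minimum of 1 FPKM, 18 with TPM scaling, 20 with median centring, 12 with quantile normalization, 73 with the replicate block, 98 with the block and TPM scaling, 93 with the block and median centring, and 0–11 when a sample was left out. For the interaction, 0 genes became 14 with pseudocount 1, 237 with the replicate block, 129 with the block and TPM scaling, 153 with the block and median centring, and 0–1 when a sample was left out. The pairing of samples by the block changed no call among the 7 genes.

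Small log2 differences that were not called turned their sign with scaling, and the cause was not tested beyond the shift of the median of all genes. In NB4, with or without the block, RUNX1 became -0.071 with median centring, RUNX2 -0.054 with TPM scaling and -0.14 with median centring, RUNX3 -0.025 with median centring, and CBFA2T3 -0.11 with TPM scaling and -0.19 with median centring. With quantile normalization, RUNX1, RUNX2, RUNX3 and CBFA2T3 became -0.038, -0.14, -0.011 and -0.17. In Kasumi-1, with or without the block, RUNX1 became -0.0040, CBFB -0.015, RUNX1T1 -0.044 and CBFA2T2 -0.057 with median centring, and RUNX2 became 0.0020 with TPM scaling. With quantile normalization, RUNX1T1 and CBFA2T2 became -0.038 and -0.058. For the interaction, with or without the block, RUNX1, RUNX2 and CBFA2T3 became 0.074, 0.056 and 0.11 with TPM scaling and 0.067, 0.051 and 0.11 with median centring. With quantile normalization, they became 0.11, 0.044 and 0.081. CBFA2T2 between the lines with OGP46 became -0.048 with TPM scaling, with or without the block, and -0.067 with quantile normalization. When a sample was left out, signs turned for RUNX2 in NB4 (-0.058 to 0.23), CBFA2T3 in NB4 (-0.13 to 0.088), and in Kasumi-1 for RUNX1 (-0.033 to 0.12), RUNX2 (-0.062 to 0.047), RUNX3 (-0.22 to 0.026), RUNX1T1 (-0.055 to 0.064), CBFA2T2 (-0.075 to 0.10) and CBFA2T3 (-0.050 to 0.020). They also turned for the interaction of RUNX2 (-0.25 to 0.041) and CBFA2T3 (-0.11 to 0.11), and between the lines with OGP46 for RUNX2 (-0.025 to 0.26) and CBFA2T2 (-0.046 to 0.059). Over the other alternatives, CBFB in NB4 lay between 0.13 and 0.34 (adjusted p = 0.0132 to 0.364 from limma) and CBFA2T2 between 0.069 and 0.30.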
